A study of Rattus norvegicus with 8 samples.

Results

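The ephrin, Slit-Robo and netrin guidance genes are 3 sets of secreted or membrane-bound cues and their receptors. They were chosen by gene symbol alone: the Eph receptors and their ephrins, the Slits and Robo receptors, the netrins and netrin-G proteins, the Unc5 receptors, Dcc and neogenin (Neo1). Of 18166 genes measured with a probe set annotated to 1 symbol, 39 matched. Efna3 and Ephb4 would match by name and were not analysed here. Messenger RNA was read on 8 Affymetrix Rat Gene 2.0 ST arrays of thoracic spinal cord from adult male Long Evans rats, about 175 days old and 400 g. On 4 arrays the cord had a thoracic spinal cord injury (SCI), and on the other 4 it came from rats with a laminectomy and no injury (sham). Every rat recovered for 4 weeks and then ate a high-fat diet (40% fat), so both groups share the diet and no comparison bears on it. A total of 8 weeks and a chow of 17% fat are also given for every array. The piece is labelled as segments 10 to 11 in one place and 11 to 12 in another, and no source used here gives its distance from the lesion.

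Guidance cues were first known for steering growing axons, and many remain expressed in the adult spinal cord, where they are studied as inhibitors or organisers of axon growth after injury. Ephrins are tethered to the cell surface and signal on contact to Eph receptor tyrosine kinases, and the ephrin can signal back into its own cell. Slits are secreted and repel axons through Robo receptors. Netrins attract axons through Dcc and repel them when an Unc5 receptor takes part, and neogenin binds both netrins and the repulsive guidance molecules. In adult cord, neurons, oligodendrocytes, astrocytes, vessels and meninges all express some of these genes, and the RNA here came from whole tissue.

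Values are log2 signals after robust multi-array averaging (RMA), so a difference of 1 is a doubling, and each difference is SCI minus sham with its standard error (SE). Array medians over all probe sets were 3.73 to 3.81, and no array was a copy of another. Arrays correlated at 0.986 to 0.991 within groups and 0.971 to 0.983 between them, taken across genes, which do not vary independently. On the second principal component SCI 3, sham 1 and sham 2 stood apart from the other arrays (-17.18 to -12.62 against 4.53 to 14.79), so results are also given without these 3 where they change. The study's design mentions 10 rats, 8 arrays were used here, and the labels tie no array to an animal, so the p-values measure the spread between these samples, which may in part be technical. Markers of the labelled tissue had group means of 7.04 to 12.18 (8 neuronal genes) and 7.31 to 11.68 (7 measured mature oligodendrocyte genes). Signals of different probe sets cannot be set against each other, so this describes the markers without testing the label. In SCI, all 8 of these neuronal and all 7 oligodendrocyte markers were lower, and all 8 macrophage and microglial markers were higher.

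In injured cord, 3 of the 39 guidance genes were higher than in sham and 2 were lower at an adjusted p under 0.05 (limma, Benjamini-Hochberg over all genes). The lower genes were Slit1, a secreted repellent for Robo-bearing axons, and Unc5b, a netrin receptor of neurons and vessels. The higher genes were Efnb1, a transmembrane ephrin, Epha3, a receptor of ephrin-A ligands, and Ntng2, the membrane-anchored netrin-G2. Together they are 12.8% of the guidance genes, against 14.2% of all genes tested, so the share of calls was close to the background. In each direction it was 7.7% higher and 5.1% lower, against 7.1% and 7.06% of all genes. At an unadjusted limma p under 0.05, 12.8% were higher and 28.2% lower, against 12.5% and 14.2% of all genes. The median difference over the 39 genes was -0.05, and over all genes it was -0.01. The greatest of the 5 changes was the 1.65-fold fall of Slit1. With the sample number in the title as a covariate, the 3 rises were at adjusted p of 0.10 to 0.16, and without SCI 3, sham 1 and sham 2 at 0.078 to 0.29, past the threshold in neither. Over all genes, 1290 higher and 1282 lower became 813 and 543 with the covariate, and 563 and 284 without the 3 arrays. The title numbers were 4, 6, 7 and 8 in SCI and 5, 9, 10 and 11 in sham, so they partly follow the group. With genes dimmer than the median of all genes left out, 25 guidance genes remained to be tested, of which 3 were higher and 10 lower, beside 1367 and 1814 of 9083 genes. The higher genes there were Efnb1, Ntng2 and Epha7, and Epha3 was among the genes left out as dim. The genes lower under that filter were Slit1, Unc5b, Efna5, Epha5, Epha6, Unc5a, Unc5c, Dcc, Ntn4 and Ntng1, each with the same difference as without it.

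**Figure D1:**
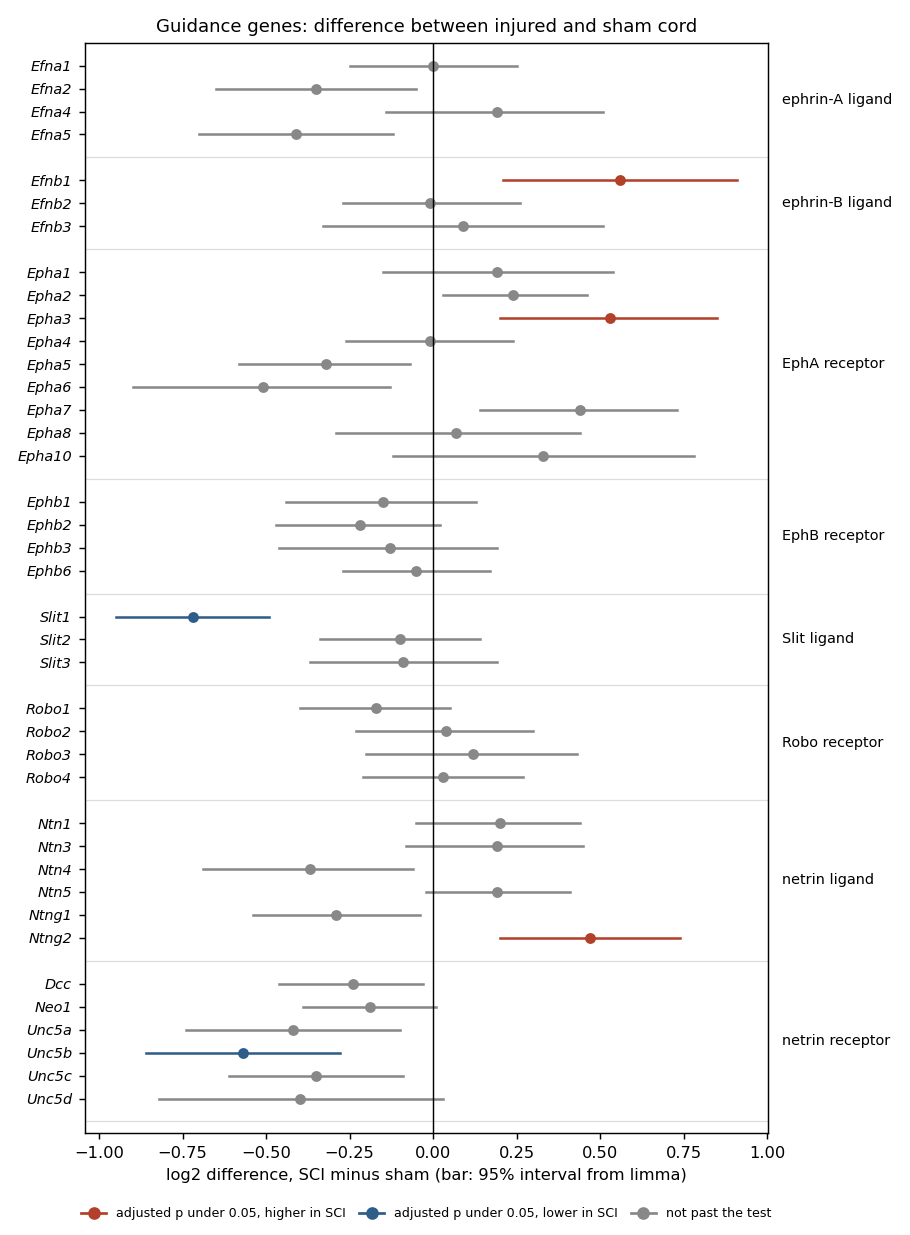
Differences between injured and sham cord for the 39 guidance genes, grouped by family. Each point is the log2 difference, SCI minus sham (horizontal axis), with its 95% interval from limma. The 5 coloured genes passed the test, with Slit1 at -0.72 farthest from 0. The 6 netrin receptors at the bottom all lie below 0, as do the 3 Slits and 4 EphB receptors.

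Of the called genes, 4 have an upstream sequence in RefSeq's GRCr8 table, which held 32 of the 39 guidance genes by symbol; Slit1 is not among them. The 250 bases before the annotated start are shown here because they set the genes that changed side by side at their regulatory end. Capitals mark GGGCGG (the GC box core) and CCAAT, searched on both strands, so that they can also appear as CCGCCC and ATTGG. The 2 motifs did not overlap in these 4 sequences. Positions refer to GRCr8, and each sequence reads 5′ to 3′ in the direction of its gene.
Unc5b, chr20:29307271-29307520, minus strand: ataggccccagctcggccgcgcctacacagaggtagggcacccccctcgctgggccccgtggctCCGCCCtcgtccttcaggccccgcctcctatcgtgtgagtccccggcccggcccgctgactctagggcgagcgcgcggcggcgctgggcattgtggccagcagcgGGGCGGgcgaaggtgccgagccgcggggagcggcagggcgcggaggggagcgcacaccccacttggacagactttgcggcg
Efnb1, chrX:68297279-68297528, plus strand: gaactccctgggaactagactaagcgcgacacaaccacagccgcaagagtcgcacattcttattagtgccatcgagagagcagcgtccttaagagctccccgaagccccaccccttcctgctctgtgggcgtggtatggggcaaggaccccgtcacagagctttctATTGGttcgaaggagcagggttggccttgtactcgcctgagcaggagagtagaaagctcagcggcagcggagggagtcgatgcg
Epha3, chr11:14920426-14920675, minus strand: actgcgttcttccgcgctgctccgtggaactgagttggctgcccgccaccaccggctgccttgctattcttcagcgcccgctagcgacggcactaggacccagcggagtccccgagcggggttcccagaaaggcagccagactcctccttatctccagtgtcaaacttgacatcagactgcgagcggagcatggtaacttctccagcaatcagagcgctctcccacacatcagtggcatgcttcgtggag
Ntng2, chr3:32943822-32944071, minus strand: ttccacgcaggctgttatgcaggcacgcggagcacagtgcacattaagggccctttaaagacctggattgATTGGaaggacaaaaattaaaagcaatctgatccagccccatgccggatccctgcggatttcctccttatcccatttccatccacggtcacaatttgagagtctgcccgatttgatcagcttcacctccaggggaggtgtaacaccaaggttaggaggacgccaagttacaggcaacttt
The Unc5b sequence had 75.2% G and C and held GGGCGG at 2 places. The Efnb1, Epha3 and Ntng2 sequences had 58.4%, 60.4% and 50.4% and held no GGGCGG. Efnb1 and Ntng2 each held 1 CCAAT, and Epha3 and Unc5b held none. Over the 32 guidance genes the median was 63.6% G and C, against 54.0% for 21851 protein-coding genes in the table. GGGCGG was present in 16 of the 32, against 38.9% of the protein-coding genes, CCAAT in 13, against 35.0%, and TATAAA, on either strand, in 0, against 12.1%. These are descriptions of the letters in this window only.

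Slit1 stood out among the 3 Slits. Its signal was 4.80, 5.13, 4.85 and 4.97 on SCI 1 to 4 and 5.55, 5.61, 5.71 and 5.75 on sham 1 to 4. Every injured array was below every sham array, and the gap between the groups (5.13 to 5.55) was wider than the range within either group. The difference was -0.72 (SE 0.10, 95% interval -0.95 to -0.49, adjusted p = 0.0013), a 1.65-fold lower level. By p it ranked 391 of 18166 genes, and by size it was 156 of 1282 genes called lower. It was past the test under all 18 other ways of processing the data that were run, from -0.79 to -0.64. Its adjusted p was 0.028 without SCI 3, sham 1 and sham 2. These alternatives were not independent checks. Slit1 has only 1 probe set, so other uses of probe sets, like the 1.5-fold minimum, could not alter its difference. Those that left out arrays shared most of their values. Slit2, the ligand best known at the spinal midline, was 5.93, 5.84, 5.93 and 5.57 in SCI and 6.04, 5.93, 5.79 and 5.92 in sham, with a difference of -0.10 (SE 0.11, adjusted p = 0.64). Slit3 had -0.09 (SE 0.13, adjusted p = 0.72), and both groups of both genes overlapped. The 95% intervals were -0.34 to 0.14 for Slit2 and -0.37 to 0.19 for Slit3, so a fall as large as that of Slit1 lies outside both.

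The ratio of Slit1 to each of its relatives on the same array was compared as well, among 13 pairs of relatives in the Slit, ephrin-B, netrin-G and Unc5 families, which were picked with the values known. The log2 ratio of Slit1 to Slit2 was -0.88 ± 0.27 in SCI and -0.26 ± 0.18 in sham (SD, n = 4), and that of Slit1 to Slit3 was 0.14 ± 0.15 and 0.77 ± 0.28. These ratios moved by -0.62 and -0.63 with the injury, each at an exact two-sided permutation p of 0.029, the smallest that 4 arrays against 4 can give, and at 0.12 after adjustment over the 13 pairs. Slit2 to Slit3 moved by -0.01 (exact permutation p = 0.91). None of the 13 pairs was past 0.05 after adjustment, and 3 were at an unadjusted exact p under it. Because the exact p cannot go below 0.029, 3 pairs at that limit cannot pass an adjustment over 13. The adjusted outcome therefore decides nothing about these 3 ratios. Each of them holds a gene already called on these same arrays, so it gives no independent support for that call.

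The Robo receptors did not pass the test. Robo1 and Robo2, the main Slit receptors of neurons, had differences of -0.17 (SE 0.10, adjusted p = 0.32) and 0.04 (SE 0.12, adjusted p = 0.90). Robo1 was 6.31, 6.24, 6.32 and 6.41 in SCI and 6.31, 6.47, 6.50 and 6.68 in sham, where only sham 1 reached down into the injured range. Robo3, a receptor of commissural axons, had 0.12 (SE 0.14) and Robo4, a receptor of endothelium, had 0.03 (SE 0.11), both at signals below the median of all genes (4.74). Of the 4 Robo genes, 0 passed limma's test adjusted or at an unadjusted p under 0.05. Their 95% intervals together ran from -0.40 to 0.43, and each of the 4 intervals included 0. The endothelial marker list showed 1 of 6 measured genes higher (Cdh5), 0 lower, and a summed signal (the sum of the markers' signals on a linear scale) of 346 to 398 in SCI and 325 to 417 in sham, and its part in the Robo4 value was not tested.

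All 6 netrin receptors had a difference below 0, and 1 passed the test. The 3 Slits and the 4 measured EphB receptors also all had differences below 0, as did 9456 of all 18166 genes. Unc5b was 6.21, 5.92, 6.01 and 6.41 on SCI 1 to 4 and 6.93, 6.69, 6.71 and 6.49 on sham 1 to 4. The groups did not overlap, though SCI 4 came close to sham 4. The difference was -0.57 (SE 0.13, 95% interval -0.86 to -0.28, adjusted p = 0.017), a 1.48-fold lower level. Without SCI 2 it was -0.50 (adjusted p = 0.053), and without SCI 3, sham 1 and sham 2 it was -0.42 (adjusted p = 0.20). Unc5b is the 1 guidance gene with a second probe set, which was dim (2.33 to 2.93 on all arrays) and had -0.06 (SE 0.14). With both probe sets averaged the difference was -0.32 (adjusted p = 0.075).

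The other Unc5 receptors had differences of like size that did not pass. Unc5a was 5.30, 4.96, 5.10 and 4.85 in SCI and 5.46, 5.83, 5.26 and 5.31 in sham, a difference of -0.42 (SE 0.14, adjusted p = 0.086). Unc5c was 5.39, 5.08, 4.90 and 5.12 and 5.41, 5.62, 5.48 and 5.37, a difference of -0.35 (SE 0.12, adjusted p = 0.080). In both, 1 injured array (SCI 1) reached the sham range and the other 3 were below it. Without SCI 1, Unc5c passed (-0.44, adjusted p = 0.035) and Unc5a did not (-0.50, adjusted p = 0.063). Unc5d was 5.15, 5.19, 4.48 and 5.58 and 5.49, 5.62, 5.48 and 5.42, a difference of -0.40 (SE 0.19, adjusted p = 0.22), with SCI 3 far down and SCI 4 inside the sham range. The 6 ratios among the 4 Unc5 genes moved by -0.22 to 0.15, with exact permutation p of 0.23 or more before adjustment, so a fall of Unc5b beyond that of its relatives was not detectable.

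Dcc, the receptor through which netrin attracts axons, was 5.36, 5.24, 5.30 and 5.17 in SCI and 5.60, 5.44, 5.38 and 5.62 in sham. Its groups were narrowly apart, and the difference of -0.24 (SE 0.10, adjusted p = 0.13) did not pass. Neo1 was 7.25, 7.18, 7.12 and 7.31 in SCI and 7.33, 7.36, 7.47 and 7.45 in sham, also without overlap, with -0.19 (SE 0.09, adjusted p = 0.22). Both had the smallest exact permutation p of this design (0.029), as does any gene whose groups do not overlap. Neither passed limma's adjusted test. Of the 6 receptors, 4 were lower at an unadjusted limma p under 0.05. Of all genes, 14.2% were lower at that level, and 26.7% reached it in either direction. The groups of 3 receptors, Dcc, Neo1 and Unc5b, did not overlap, and 10.9% of all genes were lower without overlap. The median difference of the 6 was -0.37. The neuronal markers, with a median of -0.58 and a summed signal of 6926 to 8341 in SCI against 10016 to 11522 in sham, were lower in SCI for 8 of 8 genes, as were Slit1 and Unc5b. Mature oligodendrocyte markers were also lower, for 7 of 7 genes (median -0.7), and macrophage and microglial markers were higher for 8 of 8 (median 1.28). In bulk RNA, a change in the numbers of cells and a change of RNA in each cell cannot be told apart. The part of either, in any cell type, in the values of Slit1 and the netrin receptors was not tested.

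**Figure D2:**
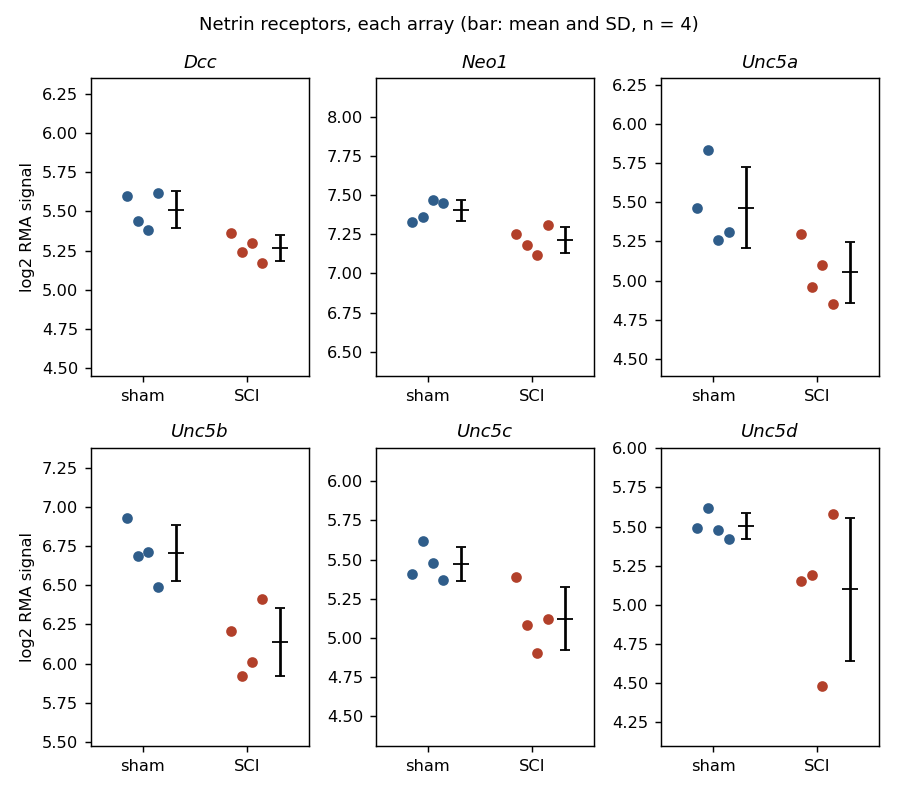
Signal of the 6 netrin receptors on each array. The vertical axis is the log2 RMA signal over an equal span in every panel, points are single arrays, and the bar beside them is the mean with its SD (n = 4). Dcc, Neo1 and Unc5b have groups that do not overlap, and in Unc5d the SCI arrays spread from 4.48 to 5.58.

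Of the 6 netrin and netrin-G genes, 1 passed the test. Ntng2, which binds the synaptic adhesion protein NGL-2, was 5.25, 5.19, 5.23 and 4.92 on SCI 1 to 4 and 4.59, 4.96, 4.50 and 4.66 on sham 1 to 4. The injured arrays were higher except that SCI 4 lay below sham 2, and the difference was 0.47 (SE 0.12, 95% interval 0.20 to 0.74, adjusted p = 0.029), a 1.38-fold rise. Its exact permutation p was 0.057, on the other side of 0.05 from the limma test. The call was lost without any 1 array but SCI 4 and sham 2, that is without SCI 1, SCI 2, SCI 3, sham 1, sham 3 or sham 4 (adjusted p of 0.070 to 0.078), and at 0.078 without SCI 3, sham 1 and sham 2. Its relative Ntng1, which binds NGL-1, was 5.16, 4.90, 4.98 and 5.12 in SCI and 5.48, 5.49, 5.15 and 5.20 in sham, with -0.29 (SE 0.11, adjusted p = 0.13). The log2 ratio of Ntng1 to Ntng2 was -0.11 ± 0.22 in SCI and 0.65 ± 0.16 in sham (SD, n = 4), a shift of -0.76 at the smallest exact permutation p, 0.029, and at 0.12 adjusted over the 13 pairs. As for the Slit1 ratios, the few pairs at this limit could not pass the adjustment. The ratio uses the same Ntng2 values as the call and gives it no independent support.

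The secreted netrins had no called gene. Ntn1, the classical floor plate attractant, was 5.53, 5.51, 5.55 and 5.20 in SCI and 5.24, 5.09, 5.37 and 5.30 in sham, with 0.20 (SE 0.11, adjusted p = 0.30). Ntn4, a netrin of basement membranes, was 5.29, 5.15, 5.34 and 4.89 and 5.72, 5.29, 5.40 and 5.76, with -0.37 (SE 0.14, adjusted p = 0.11). The dim Ntn3 and Ntn5 each had 0.19, with adjusted p of 0.37 and 0.25. In all 4 the groups overlapped. At an unadjusted limma p under 0.05 there was 1 of these 4, Ntn4.

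Of the 3 ephrin-B ligands, which span the membrane and bind mainly EphB receptors, Efnb1 rose. It was 5.79, 5.96, 5.97 and 5.33 on SCI 1 to 4 and 5.28, 4.97, 5.10 and 5.44 on sham 1 to 4. SCI 1, SCI 2 and SCI 3 were above every sham array, and SCI 4 lay inside the sham range, below sham 4. The difference was 0.56 (SE 0.16, 95% interval 0.21 to 0.91, adjusted p = 0.037), a 1.48-fold rise, with an exact permutation p of 0.057. The call was lost without SCI 1, SCI 2, SCI 3, sham 1, sham 2 or sham 3 (adjusted p of 0.061 to 0.11), and leaving out SCI 3, sham 1 and sham 2 gave 0.42 (adjusted p = 0.29). Efnb2, the arterial and neural ephrin, had -0.01 (SE 0.12, adjusted p = 0.98). Efnb3, known as the midline barrier for corticospinal axons, had 0.09 (SE 0.19, adjusted p = 0.83) and was low on sham 1 alone (3.73, against 4.48 to 4.68 on the other sham arrays).

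The 4 measured ephrin-A ligands, which are attached by a lipid anchor, held no called gene in limma, and 2 had an unadjusted p under 0.05. Efna5 was 4.69, 4.78, 4.93 and 4.73 in SCI and 5.06, 4.89, 5.36 and 5.46 in sham, and the difference was -0.41 (SE 0.13, adjusted p = 0.067). Only SCI 3 reached above the lowest sham array. This gene passed without sham 2 (-0.51, adjusted p = 0.028) and without SCI 3, sham 1 and sham 2 (-0.68, adjusted p = 0.025). Efna2 was 3.87, 4.49, 4.24 and 4.40 and 4.56, 4.55, 4.74 and 4.55, with groups that did not overlap and a difference of -0.35 (SE 0.13, adjusted p = 0.12). Efna1 and Efna4 had 0.00 (SE 0.12) and 0.19 (SE 0.15).

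The EphA receptors had members at both ends. Epha3, a high-affinity receptor of ephrin-A5, was 4.34, 4.27, 4.20 and 4.65 on SCI 1 to 4 and 3.91, 3.52, 4.14 and 3.79 on sham 1 to 4. All injured arrays were above all sham arrays, the lowest of them (SCI 3) just above sham 3. The difference was 0.53 (SE 0.15, 95% interval 0.20 to 0.85, adjusted p = 0.036), a 1.44-fold rise at signals below the median of all genes, where RMA compresses differences. The call was lost without SCI 1, SCI 2, SCI 4, sham 1, sham 2 or sham 4 (adjusted p of 0.062 to 0.088), and it was 0.45 (adjusted p = 0.18) without SCI 3, sham 1 and sham 2. With each array centred on its median, or with quantile normalization, the adjusted p was 0.055 or 0.059. Fibroblast and meningeal markers were higher in the same arrays for 4 of 8 genes and lower for 0, with a summed signal of 1779 to 2561 in SCI and 1033 to 1681 in sham. Macrophage and microglial markers were higher for 8 of 8, and astrocyte markers for 2 of 7 with 1 lower. The part of any of these lists in the values of Epha3 and Efnb1 was not tested.

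Epha7 came next. It was 5.27, 5.86, 5.57 and 5.51 in SCI and 5.19, 5.21, 4.90 and 5.17 in sham, without overlap, and its difference of 0.44 (SE 0.13, adjusted p = 0.054) missed the threshold narrowly. It passed without SCI 1 (0.53, adjusted p = 0.030). Epha2 was 3.79, 3.59, 3.55 and 3.71 and 3.55, 3.47, 3.34 and 3.31, also without overlap, at a small and dim difference of 0.24 (SE 0.10, adjusted p = 0.14).

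Epha5 and Epha6 were on the other side. Epha5, a neuronal receptor, was 5.66, 5.59, 5.57 and 6.03 in SCI and 5.99, 6.00, 6.06 and 6.09 in sham, a difference of -0.32 (SE 0.11, adjusted p = 0.091). SCI 4 was level with the sham arrays and the other 3 injured arrays were below them, and without SCI 4 the difference was -0.43 (adjusted p = 0.013). Epha6 was 5.40, 4.87, 4.99 and 5.28 and 5.29, 6.08, 5.54 and 5.68, a difference of -0.51 (SE 0.17, adjusted p = 0.077), in which SCI 1 lay inside the sham range. Without sham 1 it was -0.63 (adjusted p = 0.039).

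Epha4, the receptor most studied as a brake on corticospinal regrowth, was level. It was 6.29, 6.03, 6.23 and 6.43 in SCI and 6.07, 6.27, 6.33 and 6.35 in sham, with a difference of -0.01 (SE 0.11, 95% interval -0.26 to 0.24). Epha1, Epha8 and the kinase-inactive Epha10 had 0.19, 0.07 and 0.33 with SE of 0.16, 0.17 and 0.20, all dim and with overlapping groups.

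None of the 4 measured EphB receptors passed the test. Ephb1, Ephb2, Ephb3 and the kinase-inactive Ephb6 had differences of -0.15 (SE 0.13), -0.22 (SE 0.11), -0.13 (SE 0.15) and -0.05 (SE 0.10). Their adjusted p values were 0.51, 0.23, 0.64 and 0.82, and 0 of the 4 had an unadjusted limma p under 0.05. Ephb2, which binds ephrin-B ligands in synapses and axons, was 4.13, 3.92, 4.06 and 4.20 in SCI and 4.52, 4.12, 4.28 and 4.28 in sham, and the groups overlapped only between SCI 1, SCI 4 and sham 2.

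**Figure D3:**
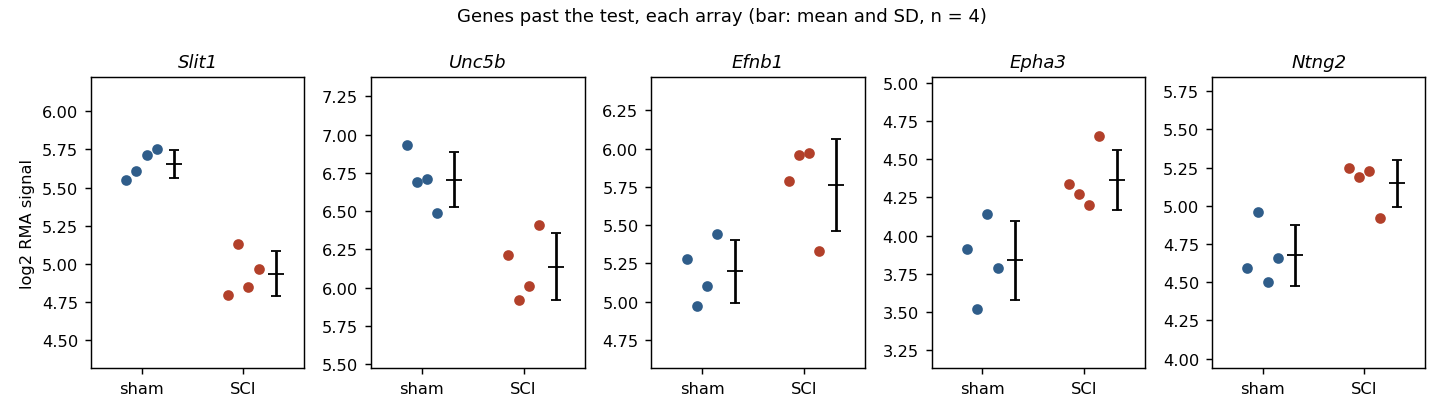
Signal of the 5 guidance genes past the test on each array. The vertical axis is the log2 RMA signal over an equal span in every panel, points are single arrays, and the bar beside them is the mean with its SD (n = 4). Slit1 has the widest gap between groups (5.13 to 5.55), and in Efnb1 and Ntng2 the array SCI 4 lies among the sham arrays.

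Seen over all 39 genes, the groups did not overlap for 8, or 20.5%, against 20.3% of all genes. The injured arrays were higher in Epha2, Epha3 and Epha7 and lower in Dcc, Efna2, Neo1, Slit1 and Unc5b. That is 7.7% and 12.8% of the guidance genes, against 9.36% and 10.9% of all genes. Groups that do not overlap always give the smallest exact permutation p of this design, 0.029, so this p adds nothing for the 8. At an unadjusted limma p under 0.05 there were 16 (41.0%, against 26.7% of all genes), of which 5 were higher (12.8%, against 12.5%) and 11 lower (28.2%, against 14.2%). The median size of the difference, whatever its sign, was 0.20 for the guidance genes and 0.16 for all genes. The 95% intervals had a median width of 0.55, the same as over all genes.

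**Figure D4:**
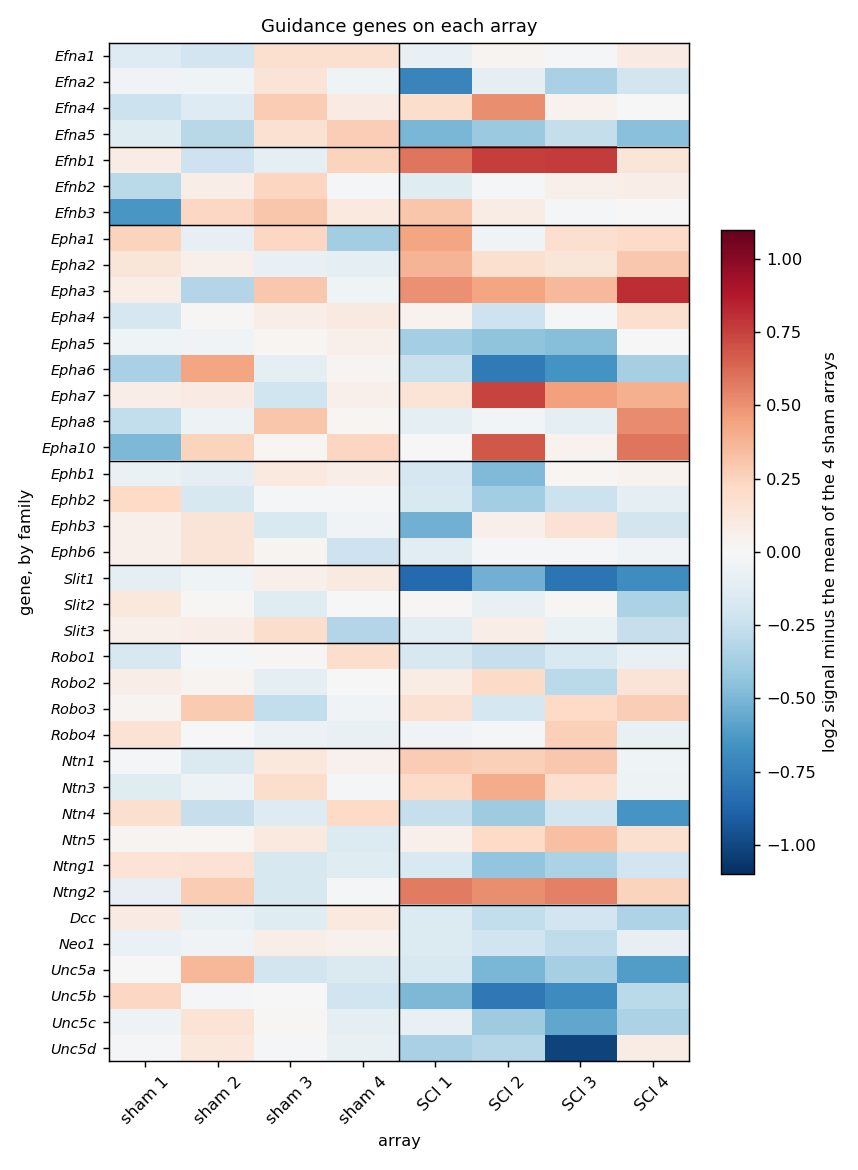
All 39 guidance genes (vertical axis, by family) on each of the 8 arrays (horizontal axis). Colour is the log2 signal minus the mean of the 4 sham arrays, from -1.02 to 0.81. Slit1 is blue on all 4 SCI arrays and Epha3 red on all 4, while Epha4, Robo2 and Efnb2 show no common colour.

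Guidance genes that lie beside each other on a chromosome were looked at together. In RefSeq's GRCr8 order Efna1, Efna3 and Efna4 are adjacent protein-coding genes, as are Robo3 and Robo4, while Robo1 and Robo2 have 1 gene between them and Ephb2 and Epha8 have 3. None of these neighbours passed the test. The differences were 0.00 and 0.19 for Efna1 and Efna4, 0.12 and 0.03 for Robo3 and Robo4, -0.17 and 0.04 for Robo1 and Robo2, and -0.22 and 0.07 for Ephb2 and Epha8. The 5 genes past the test have no guidance gene within 5 coding genes.

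The signalling partners of these receptors were taken from a list of 62 genes, of which 55 were measured. Of these, 3 were higher and 7 lower, together 18.2%, against 14.2% of all genes, and the median difference was -0.10. Without SCI 3, sham 1 and sham 2, 0 of the 55 passed limma's adjusted test, and 2 higher and 6 lower had an unadjusted p under 0.05.

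Among 13 Slit and Robo partners, 3 were lower and 1 higher, together 30.8%, against 14.2% of all genes. Srgap3, a GTPase-activating protein of the Slit-Robo family, was 6.20, 6.26, 6.30 and 6.62 in SCI and 7.10, 7.22, 6.82 and 6.86 in sham. The groups were apart, and the difference of -0.65 (SE 0.13, adjusted p = 0.0069) is a 1.57-fold lower level. Sos1, an exchange factor recruited to Robo, fell by 0.45 (SE 0.10, adjusted p = 0.015), and Usp33, a deubiquitinase that binds Robo1, fell by 0.40 (SE 0.09, adjusted p = 0.016). Dag1, the dystroglycan that binds Slit outside the cell, rose by 0.39 (SE 0.09, adjusted p = 0.017). It was named after its value was seen, and it lost its call without SCI 2 or sham 4 (both 0.054).

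Among 23 Eph and ephrin partners, 2 were higher and 3 lower, together 21.7%, against 14.2% of all genes. The phosphatase Ptpn11 fell by 0.42 (SE 0.10, adjusted p = 0.016), and the Rac exchange factor Tiam1 fell by 0.43 (SE 0.10, adjusted p = 0.020), which was at 0.051 without SCI 1 and 0.062 without SCI 2. Vav2, an exchange factor that Eph receptors bind, rose by 0.41 (SE 0.11, adjusted p = 0.036), and its call was lost without SCI 1, SCI 2, SCI 3, sham 1, sham 2 or sham 3 (0.063 to 0.10). Pick1, a PDZ protein, and Inppl1, a lipid phosphatase that binds EphA2, were named after their values were seen, at -0.44 (adjusted p = 0.039) and 0.36 (adjusted p = 0.040). Pick1 was past the test only without SCI 4 or sham 3, and Inppl1 only without SCI 3, when 1 array was left out.

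Among 19 partners of netrins and their receptors, 1 passed (5.26%, against 14.2% of all genes). This was Flrt1, a membrane protein of the family that binds Unc5 receptors. It fell by 0.48 (SE 0.13, adjusted p = 0.034), and was at 0.055 to 0.091 without any 1 array other than SCI 4. Lrrc4c, which is NGL-1 and binds netrin-G1, had -0.43 (SE 0.14, adjusted p = 0.074), and Cbln4, a secreted ligand of Dcc, had -0.45 (SE 0.17, adjusted p = 0.11). Both passed without SCI 4 (0.030 and 0.035). The repulsive guidance molecule Rgma, a ligand of neogenin named after its value was seen, had -0.01.

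**Figure D5:**
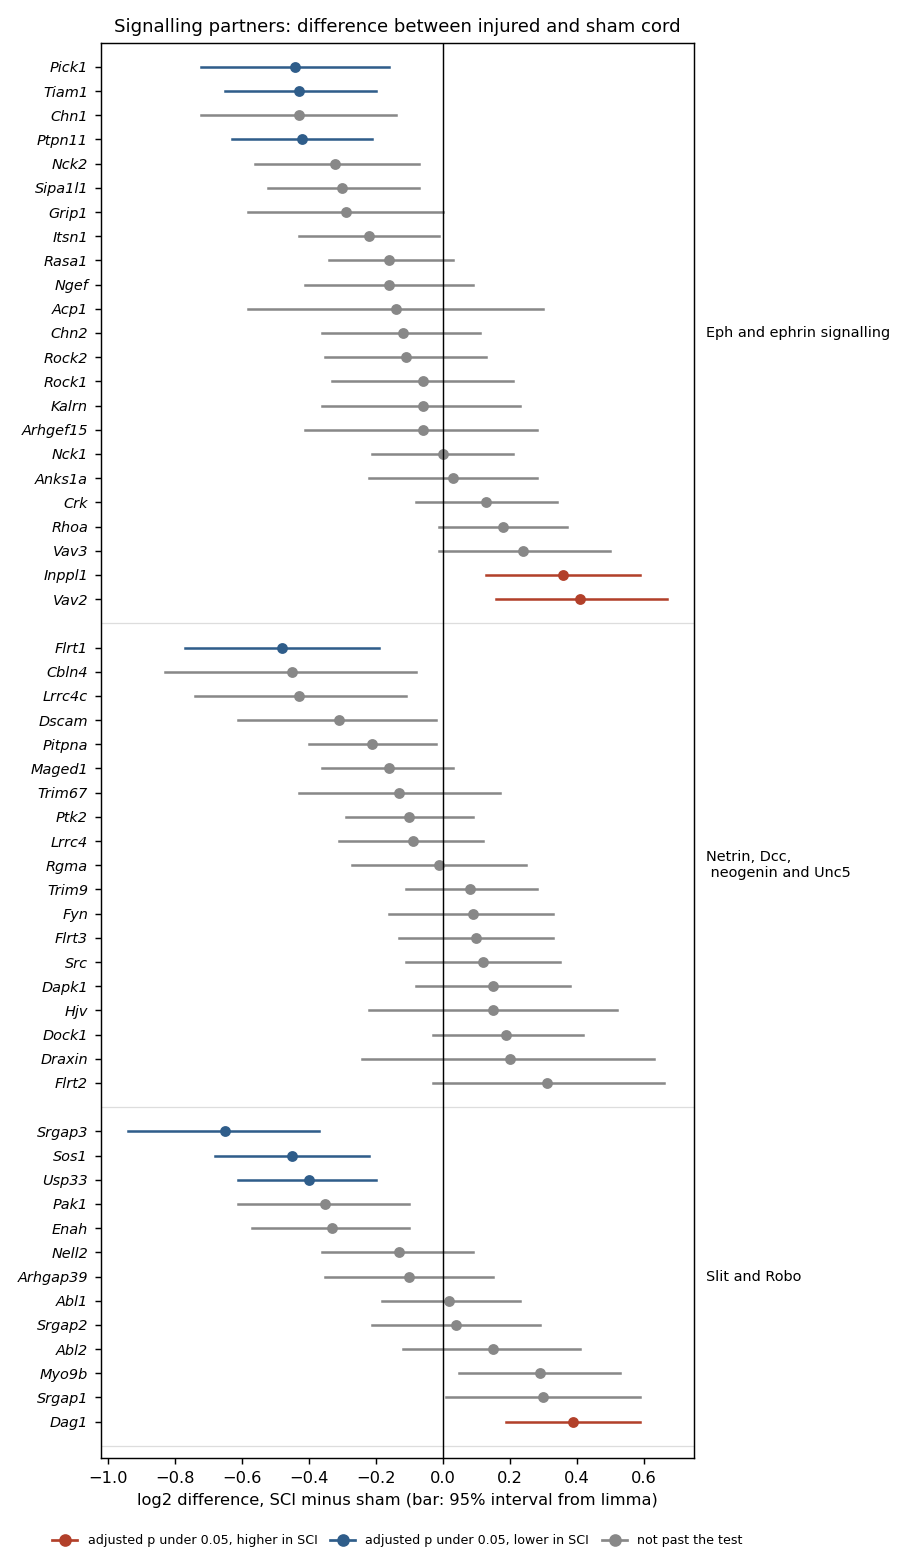
Differences between injured and sham cord for the 55 measured signalling partners, in 3 groups. Each point is the log2 difference, SCI minus sham (horizontal axis), with its 95% interval from limma, ordered by size within each group. Srgap3 at -0.65 is the lowest of all, and the netrin group holds 1 coloured gene of 19.

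Other cell type markers were read on the same arrays. Mature oligodendrocyte markers had a summed signal of 4641 to 5401 in SCI and 7819 to 8320 in sham, and macrophage and microglial markers 2071 to 2789 and 886 to 1032, with no overlap in either. Astrocyte markers had 2 of 7 higher and 1 lower, at 7953 to 8778 in SCI and 5997 to 6410 in sham. Precursor markers of the oligodendrocyte line had 2 of 6 higher and 1 lower, Schwann cell markers 1 of 7 and 1, and floor plate and ependymal markers 1 of 4 and 0. The part of these in the guidance genes was not tested.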

How the data were processed

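The authors deposited log2 values per probe set, made with Affymetrix Expression Console and RMA per the submitters' processing notes. The versions, settings, probe library and genome build were not given in the sources used here. The log base follows from RMA and the range of the values, and no detection calls were used. Of 36685 probe sets, 18511 had 1 symbol. The brightest probe set of a symbol (by mean over the 8 arrays) was kept, which left 18166 genes. By gene ID, 38 of the 39 guidance genes were in RefSeq's GRCr8 table with the same symbol, and Robo4 matched by symbol.

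SCI was tested against sham with lmFit and eBayes of limma 3.58.1 (R 4.3.3), without covariates, adjusted by Benjamini-Hochberg over all genes at a threshold of 0.05. The procedure was tested on simulated data. Exact permutation tests were two-sided and used all 70 assignments of 4 of the 8 arrays. All guidance genes could be named; of each partner group the 3 genes with the smallest p were named, and any other is said to be named after its value was seen. The genes, the partner and marker lists and the alternatives were chosen with earlier results of these data known. The alternatives were centring, quantile normalization, a filter on dim genes, other uses of probe sets, a variance trend, array weights, the title number as covariate, a 1.5-fold minimum and leaving out arrays. Replicate numbers follow the sample list and pair no arrays.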

Additional observations from a re-analysis of the deposited data

Results flagged for a closer look

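In 102 groups of 4 arrays, 6 held an array far from the other 3 by Dixon's criterion at the 95% level, and chance gives about 1 in 20. Efna2 was 4.74 on sham 3, against 4.55 to 4.56 on the other sham arrays. Epha7 was 4.90 on sham 3, against 5.17 to 5.21. Epha8 was 4.47 on SCI 4, against 3.84 to 3.92 on the other injured arrays. Ntn1 was 5.20 on SCI 4, against 5.51 to 5.55. Among the partners, Vav2 was 5.23 on SCI 4, against 5.55 to 5.61, and Lrrc4c was 5.25 on sham 1, against 5.55 to 5.58. None of these 4 guidance genes was past the test.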

How the results depend on the processing

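Of the 39 guidance genes, 18 kept their sign and call under every alternative that tested them (18 alternatives for 8 genes, and 17 for 10 genes that the filter on dim genes left out), 13 changed call under at least 1 and 8, with differences of -0.05 to 0.09, turned sign. Slit1 was the called gene that kept its call throughout. The small number of arrays, 4 in each group, limits what could be detected.

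Leaving out 1 array at a time gave 0 to 2 guidance genes higher and 1 to 3 lower, 0 to 2 partners higher and 4 to 11 lower, and 923 to 1257 of all genes higher and 780 to 1283 lower. Without SCI 3, sham 1 and sham 2 limma gave 0 guidance genes higher (4 at an unadjusted p under 0.05), 0 partners higher (2) and 0 lower (6), and 563 of all genes higher and 284 lower. With the title number as covariate limma gave 0 guidance genes higher (5 unadjusted), 0 partners higher (4) and 1 lower, and 813 and 543 of all genes. At 1.5-fold or more, 0 guidance genes were higher and 1 lower, 0 partners higher and 1 lower, and 781 and 415 of all genes. With genes below the median level left out, 10 of 25 guidance genes, 14 of 47 partners and 1814 of 9083 genes were lower, with fewer genes tested. With probe sets averaged, 1 guidance gene was lower, as Unc5b lost its call (-0.32, adjusted p = 0.075). With a variance trend 13 partners were lower, beside 1751 of all genes lower and 1531 higher, and with centring 1 was higher, beside 1134 of all genes higher and 1568 lower. The 1.5-fold minimum used the same fit and only dropped called genes with smaller changes. Apart from that and the averaging, the cause of these shifts was not tested.

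Signs turned in Efna1 (-0.04 centred, -0.04 with array weights, -0.17 without the 3 arrays), Robo2 (0.00 centred, -0.01 with the covariate), Robo4 (-0.01 centred, 0.00 with quantile normalization, -0.03 with the covariate), Epha4 (0.00 with quantile normalization, 0.10 with the covariate), Efnb2 (0.15 with the covariate), and, without the 3 arrays, Efnb3 (-0.08), Epha8 (-0.03) and Ephb6 (0.04). With 1 array left out the ranges were -0.07 to 0.06 for Efna1, -0.10 to 0.07 for Efnb2, -0.12 to 0.19 for Efnb3, -0.08 to 0.06 for Epha4, -0.08 to 0.17 for Epha8, -0.03 to 0.15 for Robo2 and -0.04 to 0.09 for Robo4. No paired analysis was possible because the labels give the groups no shared replicate numbers.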
